A study of Mus musculus with 32 samples.

Results

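The chromatin around Etv2 and 9 genes of the endothelial program was followed through 32 ATAC-seq libraries of mouse limb buds. The 10 genes were Etv2, Tal1, Lmo2, Fli1, Erg, Kdr, Tek, Tie1, Cdh5 and Pecam1. ATAC-seq marks open chromatin, because the Tn5 transposase inserts sequencing adapters where nucleosomes do not cover the DNA, and each deposited list holds the summits of the peaks called in 1 library. A summit was assigned to a gene when it lay in the gene body or within 50 kb of it and the nearest protein-coding start was that of the gene, and for Etv2 also when it lay in the 3.9 kb upstream. Summits of the 32 lists that followed each other within 300 bp were joined into a site. Of 138296 sites in all, 90 belonged to the 10 genes, and they were built from 833 summits. The genes were chosen by name, with earlier results of these data known.

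The libraries came from hindlimb or forelimb buds at E9.5, E10.25 or E10.5. The wild-type group at E10.25 (E10.25 WT, n = 2) and both groups of Etv2CKO embryos (E10.25 CKO, n = 5, and E10.5 CKO, n = 2) held cells of the posterior hindlimb, and Etv2CKO embryos were HoxB6-Cre Tg/+; Etv2 fl/-. Cells positive for the Etv2-EYFP transgene were sorted from E10.5 hindlimbs (HL EYFP+, n = 3) and forelimbs (FL EYFP+, n = 3), and the labels give the libraries of the limbs the same 3 sample numbers, called pools here. Single libraries stood for E9.5 hindlimb, E10.5 anterior hindlimb and Shh-EGFP cells of the E10.5 posterior hindlimb. In the overexpression experiment, the anterior (A) and the posterior (P) part of the hindlimb gave a library each in 4 control embryos and in 3 Etv2OE embryos, which carried 1 copy each of HoxB6-Cre, of the doxycycline-inducible transgene iHA-Etv2 and of ROSA26-STOP-rtTA-IRES-EGFP, where Cre switches on the rtTA activator. Doxycycline was given to the pregnant dams at E9.5 and E10.5, so that the control littermates were exposed to it as well. The methods of the study describe controls as lacking the iHA-Etv2 or the rtTA transgene, while a legend describes controls that carry both and lack Cre, so control libraries may hold the iHA-Etv2 cassette too. The labels give E10.5 for these 14 libraries, while the methods of the study describe a later harvest. A and P were read as anterior and posterior from the text of the study. Wild-type and Etv2CKO libraries were made from pooled embryos, with more embryos in a wild-type pool than in a CKO pool, and the overexpression experiment used single embryos. For the sorted EYFP+ cells, limb buds were pooled or processed separately.

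Several features of these models touch the 10 genes directly. The Etv2-EYFP transgene carries a copy of the 3.9 kb upstream of Etv2, so reads of the transgene and of the endogenous sequence cannot be told apart there. The EYFP+ cells were sorted against CD31, TIE2 and CD45, and CD31 and TIE2 are the products of Pecam1 and Tek. HoxB6-Cre acts in the lateral plate mesoderm that forms the hindlimb, and which exons of Etv2 the floxed allele removes is not given in the sources used here, so loss of DNA and loss of accessibility within Etv2 cannot be told apart in CKO embryos. The iHA-Etv2 cassette adds Etv2 coding sequence. In unsorted tissue, fewer endothelial cells and less accessible endothelial cells cannot be told apart.

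ETV2 is an ETS transcription factor that acts at the top of the hemato-endothelial program. It is needed for the formation of blood and endothelial lineages and is switched off once these are established. Tal1, Lmo2, Fli1 and Erg are transcription factors or cofactors of the same program, and FLI1 and ERG are ETS proteins that keep the program on after ETV2 has gone. Kdr, Tek and Tie1 encode receptor tyrosine kinases of endothelial cells, and Cdh5 and Pecam1 encode adhesion proteins of endothelial junctions.

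The lists differed in length from 13763 to 54676 summits, and a missing summit says only that no peak was called at the depth of that library, which is unknown. The number of member sites followed the length of the list. The Spearman correlation over the 32 lists was 0.952, given as a description because list length enters both measures. The 4 control posterior libraries listed 36 to 44 member sites in lists of 51265 to 54676 summits. The 5 E10.25 CKO libraries listed 5 to 29 in lists of 15626 to 42742. The single E10.5 anterior library listed 5 in the shortest list. Among the strongest 15000 summits of each list, the range narrowed to 2 to 9 member sites. The 3 Etv2OE posterior libraries had 2 to 3 there and the 4 control posterior libraries 2 to 7, so these groups overlapped.

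**Figure D1:**
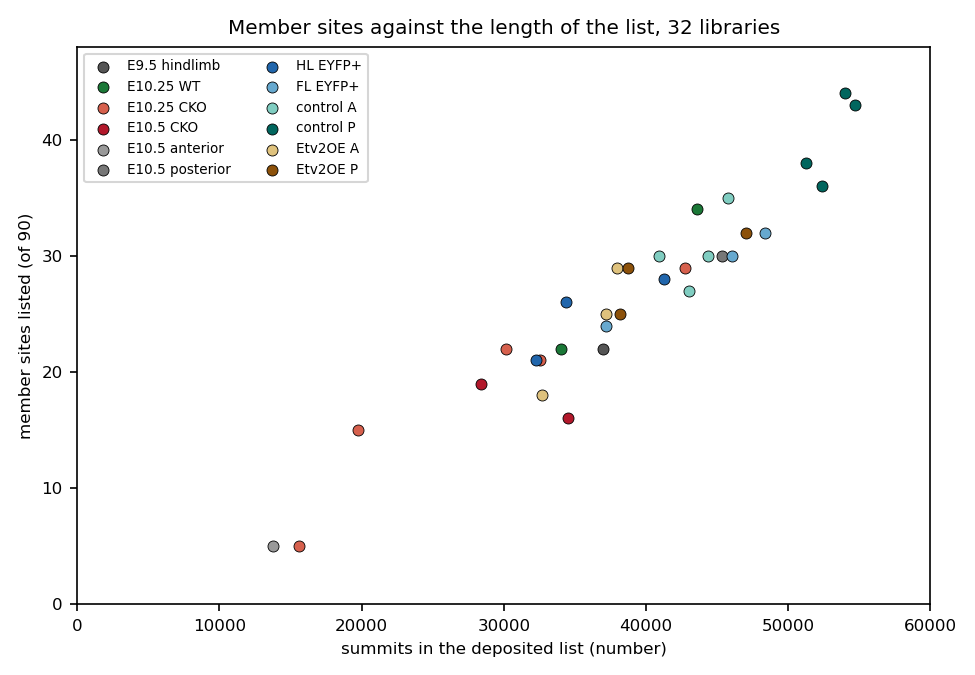
Number of member sites listed (vertical axis, of 90) against the number of summits in the deposited list (horizontal axis), with 1 point for each of the 32 libraries coloured by group. The points rise along 1 band from 5 sites in the shortest list to 44 in the control posterior libraries.

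The sequences of the sites on which the results turn are printed from GRCm38.p6, the assembly of mm10, on the strand of the gene. Each window is 200 bases and is centred on the median summit, except at Kdr, where it ends at the gene start. Capitals mark the ETS words AGGAAGT and AGGAAAT and the GATA words AGATAA and TGATAA, searched on both strands. The sites of Etv2 lie in a coding exon and upstream at -3.39 kb from the start.
Etv2 coding exon, chr7:30634714-30634913, minus strand: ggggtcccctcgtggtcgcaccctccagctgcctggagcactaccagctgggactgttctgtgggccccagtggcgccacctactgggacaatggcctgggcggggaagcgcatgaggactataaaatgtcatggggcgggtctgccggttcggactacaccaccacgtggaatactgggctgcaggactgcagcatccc
Etv2 upstream site, chr7:30639146-30639345, minus strand: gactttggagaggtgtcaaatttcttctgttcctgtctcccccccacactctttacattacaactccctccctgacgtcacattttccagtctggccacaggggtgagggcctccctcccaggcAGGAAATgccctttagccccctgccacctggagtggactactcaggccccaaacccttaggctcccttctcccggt
The Kdr promoter was the only member site listed in every library, and the Tek and Lmo2 sites had the best median ranks, 24.2% and 27.2% of the list, among the 25 most widely listed member sites.
Kdr promoter, chr5:75978459-75978658, minus strand: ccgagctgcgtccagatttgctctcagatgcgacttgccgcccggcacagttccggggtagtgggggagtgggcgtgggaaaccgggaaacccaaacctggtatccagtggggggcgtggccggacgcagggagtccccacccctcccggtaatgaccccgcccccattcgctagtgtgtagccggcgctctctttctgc
Tek intron, chr4:94765302-94765501, plus strand: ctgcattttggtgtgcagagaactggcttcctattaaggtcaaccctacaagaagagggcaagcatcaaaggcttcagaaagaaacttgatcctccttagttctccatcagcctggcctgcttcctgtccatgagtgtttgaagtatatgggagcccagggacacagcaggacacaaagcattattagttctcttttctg
Lmo2 upstream, chr2:103927843-103928042, plus strand: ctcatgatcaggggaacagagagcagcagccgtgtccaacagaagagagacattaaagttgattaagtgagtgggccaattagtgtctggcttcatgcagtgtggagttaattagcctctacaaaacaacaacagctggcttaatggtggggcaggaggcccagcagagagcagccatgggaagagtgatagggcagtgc
The remaining sites differed in presence between groups of libraries.
Erg intron, chr16:95493416-95493615, minus strand: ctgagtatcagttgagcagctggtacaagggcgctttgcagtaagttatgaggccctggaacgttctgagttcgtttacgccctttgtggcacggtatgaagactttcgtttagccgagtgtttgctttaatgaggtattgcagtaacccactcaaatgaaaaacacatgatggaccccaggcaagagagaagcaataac
Erg upstream, chr16:95588975-95589174, minus strand: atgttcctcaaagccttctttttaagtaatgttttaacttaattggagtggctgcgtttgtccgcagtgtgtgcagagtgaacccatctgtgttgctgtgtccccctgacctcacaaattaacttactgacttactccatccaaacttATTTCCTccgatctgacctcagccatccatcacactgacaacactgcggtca
Cdh5 upstream, chr8:104091558-104091757, plus strand: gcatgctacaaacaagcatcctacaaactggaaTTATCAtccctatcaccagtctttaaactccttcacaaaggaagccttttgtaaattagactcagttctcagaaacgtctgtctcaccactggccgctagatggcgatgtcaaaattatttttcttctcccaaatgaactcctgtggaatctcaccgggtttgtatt
Fli1 upstream site at -9.17 kb, chr9:32550665-32550864, minus strand: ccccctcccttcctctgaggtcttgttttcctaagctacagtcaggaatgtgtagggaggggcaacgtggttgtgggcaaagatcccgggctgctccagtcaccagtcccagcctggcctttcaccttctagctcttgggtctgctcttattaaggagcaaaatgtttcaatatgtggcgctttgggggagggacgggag
Fli1 upstream site at -26.18 kb, chr9:32567674-32567873, minus strand: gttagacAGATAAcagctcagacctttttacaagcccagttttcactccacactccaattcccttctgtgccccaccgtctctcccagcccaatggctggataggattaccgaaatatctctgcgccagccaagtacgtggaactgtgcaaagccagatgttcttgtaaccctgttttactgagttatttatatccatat
An ETS word occurred in 16 of the 90 member windows (17.8%), against 12.05% of all 186170 intervals of the same length in the series. A GATA word occurred in 14 of 90 (15.6%), against 14.1%. Among the 25 member sites listed in at least 16 libraries, 2 held an ETS word and 2 a GATA word. Of the sequences above, the Etv2 upstream site and the Erg upstream site held the ETS word AGGAAAT. The Cdh5 site held the GATA word TGATAA and the Fli1 site at -26.18 kb held AGATAA. A match describes the letters of a window and does not show that a factor bound there.

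The 90 member sites were mostly distal. Of these, 11 were promoter sites, with a summit within 1 kb of a start of the gene, and 79 were distal. By position, 49 lay in introns, 34 upstream, 3 downstream, 2 in coding exons and 2 in untranslated parts of exons. Presence ranged from 1 library (26 sites, 28.9%, against 30.9% of all sites) to at least 16 libraries (25 sites, 27.8%, against 22.4%). The Kdr promoter was listed in every library, and 4.91% of all sites were. Promoters were compared by summits that themselves lay within 1 kb of a start, which is stricter than a promoter site, where 1 such summit among those joined is enough. By this measure a promoter summit was present in a median of 6 of 32 libraries, in every library for 1 gene and in none for 3 genes (Tie1, Cdh5 and Pecam1). By promoter sites, which are used in the rest of the text, the median was 14 libraries. No test was made of these counts. Over 21938 protein-coding genes the median by single summits was 22 libraries, with 24.6% of genes in every library and 31.6% in none. For 30 other endothelial genes, the median was 16 libraries, with 2 in every library and 6 in none, and for 12 limb mesenchyme genes it was 26, with 1 in every library and 0 in none.

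**Figure D2:**
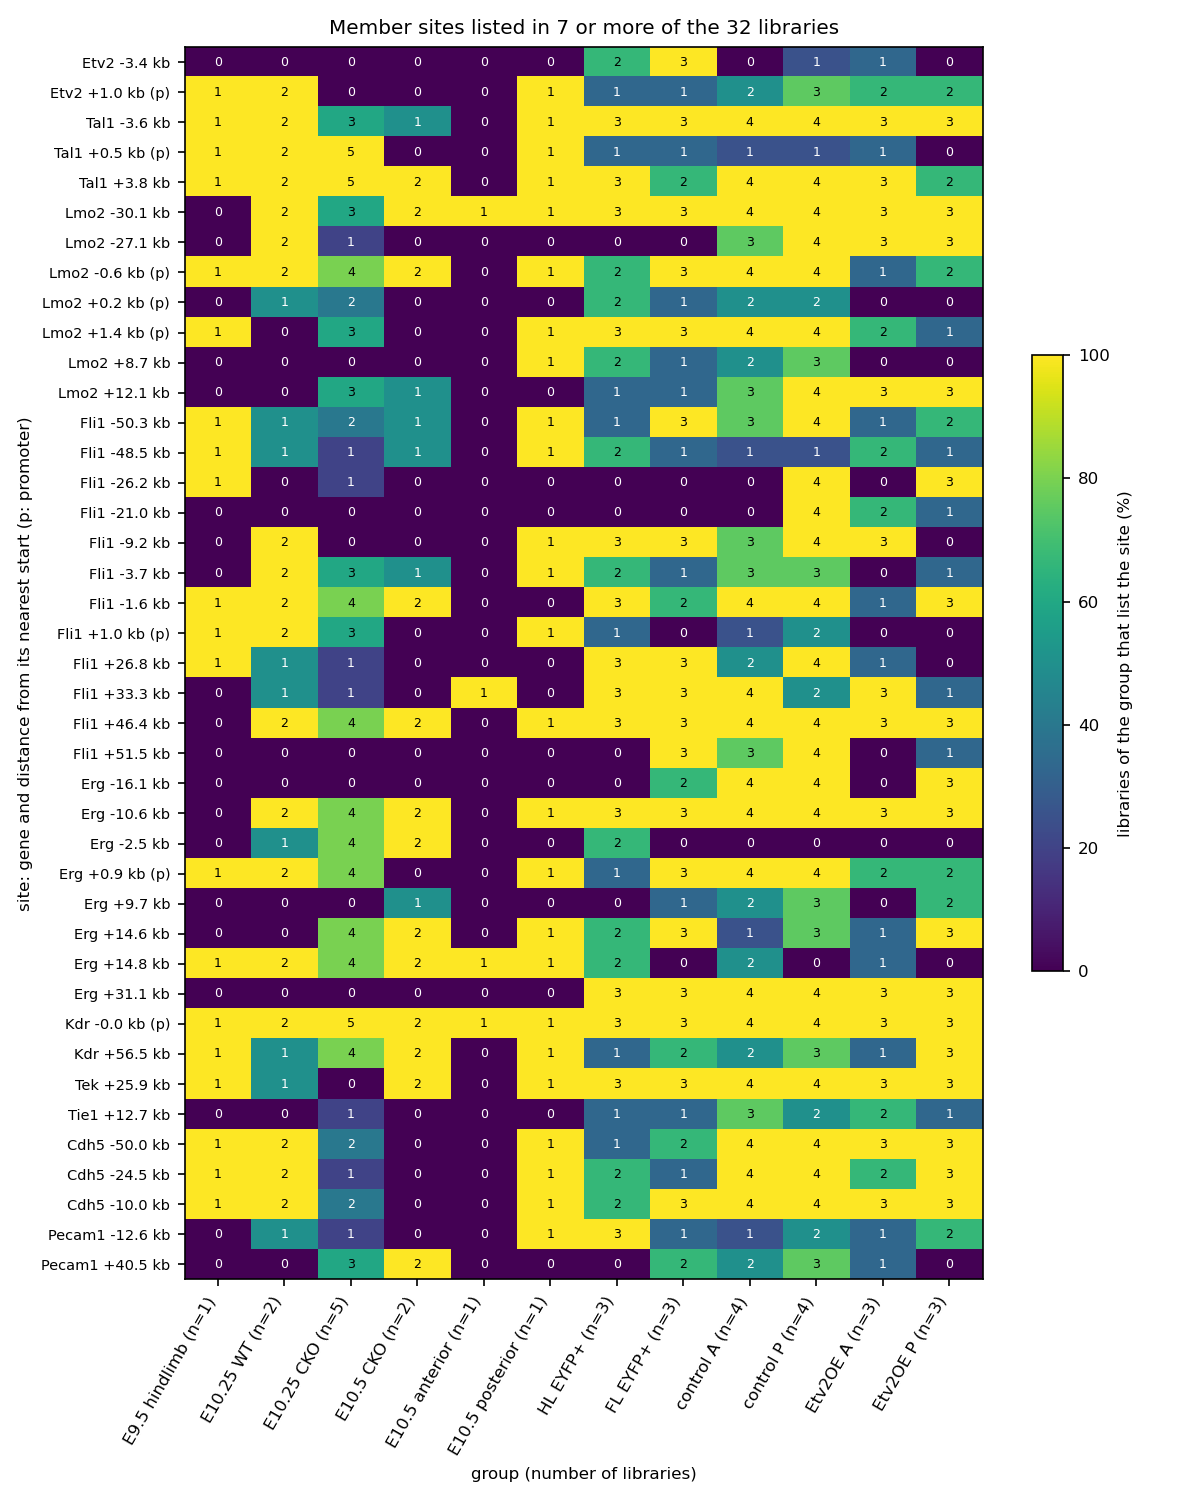
Number of libraries that list each member site (number in the cell, colour as percent of the group) for the 41 sites listed in at least 7 libraries (rows, with the distance from the nearest start of the gene) in the 12 groups (columns). The Kdr promoter row is complete, the Etv2 site at -3.4 kb is filled mainly in the EYFP+ columns, and the Erg site at +31.1 kb is empty in the 6 columns on the left.

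Etv2 itself had 3 sites. The site in its coding exon, whose median summit lay 1.04 kb inside the gene and which counted as a promoter site because some summits lay within 1 kb, was listed in 15 libraries. The upstream site at -3.39 kb was listed in 7 libraries. A further summit at -3.87 kb was listed in 1 Etv2OE posterior library, at 96.4% of the list, where 0% is the strongest summit and 100% the weakest. No summit was listed within the rest of the 3.9 kb upstream. In 13 of the 32 libraries Etv2 had no summit at all.

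The coding exon site was listed in 15 of 25 libraries with intact Etv2 and in 0 of 7 CKO libraries. In E10.25 WT, its ranks were 32.2% and 52.4% of the list. In E10.25 CKO, it was listed in 0 of 5 libraries, and in E10.5 CKO in 0 of 2. The E9.5 hindlimb and E10.5 posterior libraries listed it at 79.1% and 81.5%, and the E10.5 anterior library did not. It was listed in 1 of 3 HL EYFP+ (65.7%) and 1 of 3 FL EYFP+ libraries (50.9%), in 5 of 8 control libraries (46.2% to 92.4%) and in 4 of 6 Etv2OE libraries (66.3% to 91.5%). Outside E10.25 WT, every group of 2 or more libraries with intact Etv2 listed the site only in part. For E10.25 WT against E10.25 CKO the two-sided Fisher's exact test gave p = 0.047619, the smallest p that 2 against 5 libraries allow, and the adjusted p over all 43272 sites tested was 0.828. Of all sites, 0% passed that adjustment. With the 3 E10.25 CKO lists of at least 30000 summits alone, p was 0.10 (0 of 3 listed), and in lists cut to 15000 summits 1 of 2 E10.25 WT libraries kept it (exact p = 0.286). Over all 7 CKO against the 25 other libraries (0 of 7 against 15 of 25), the exact p was 0.00769 and the adjusted p over all sites 0.0949. The 25 libraries are not fully independent, because some share an embryo or a pool.

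The upstream site at -3.39 kb was listed mainly in EYFP+ libraries. It was listed in 3 of 3 FL EYFP+ libraries, at 25.9%, 33.1% and 45.0% of the list, and in 2 of 3 HL EYFP+ libraries, at 42.9% and 79.98%. It was listed in 0 of the 12 other libraries of the limb-bud populations and in 2 of 14 libraries of the overexpression experiment, at 86.8% in 1 control posterior and 77.3% in 1 Etv2OE anterior library. Each of the 3 EYFP+ pools listed it in at least 1 limb. For EYFP+ against the 12 other populations, 5 of 6 against 0 of 12, the exact p was 0.000700 and the adjusted p over 71400 sites was 0.0366. With the 3 pools in place of the 6 libraries, the unadjusted exact p was 0.00220. The call over all sites was lost in lists of at least 25000 summits, in lists cut at 25000 summits and with the HL or the FL libraries alone. The transgene brings this sequence in extra copies into exactly these cells, so a higher copy number and a more accessible endogenous site cannot be told apart.

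**Figure D3:**
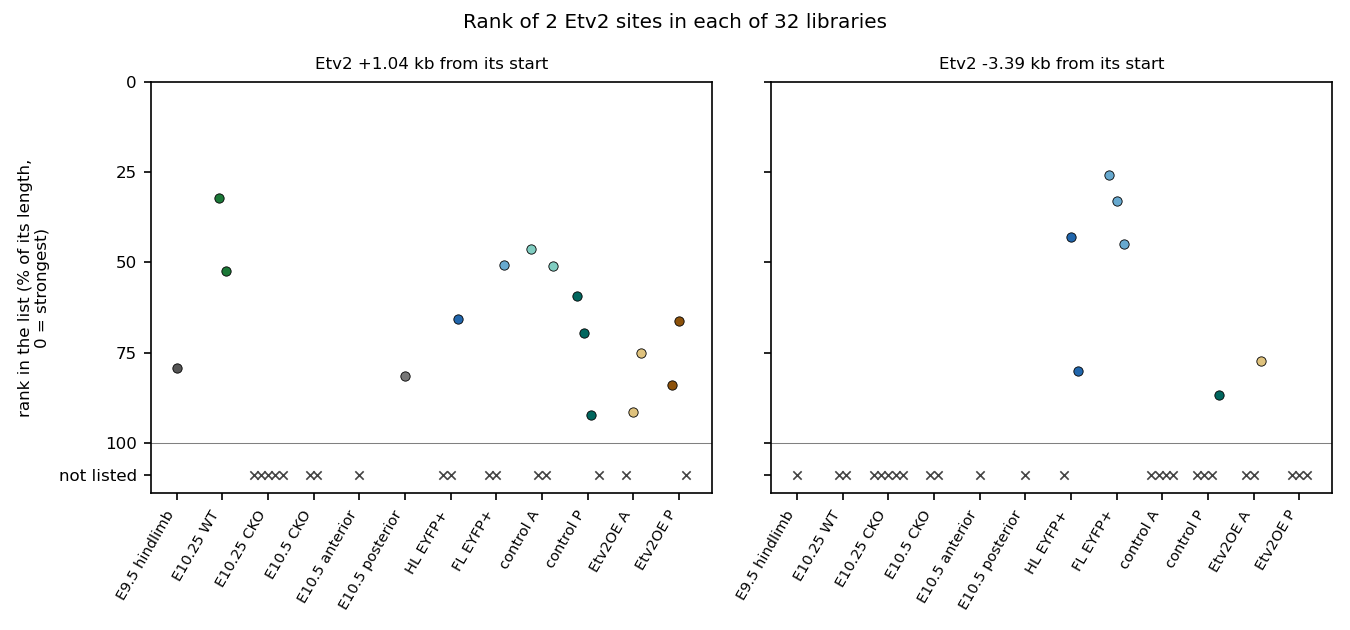
Rank of the Etv2 coding exon site (left, +1.04 kb) and the upstream site (right, -3.39 kb) as percent of the list length (vertical axis, 0 at the top is the strongest summit, crosses below 100 are libraries that do not list the site) in the 12 groups (horizontal axis), with 1 mark per library. The left panel has 7 crosses for the 7 CKO libraries, and the right panel has its 4 strongest ranks, 25.9% to 45.0%, in EYFP+ libraries.

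The transcription factor genes Tal1, Lmo2, Fli1 and Erg held most of the widely listed sites. Tal1, a basic helix-loop-helix factor of blood and endothelial progenitors, had 5 sites. Those in its coding exon at +3.8 kb and upstream at -3.65 kb were listed in 29 and 28 libraries. Its promoter was listed in 14 libraries, among them both E10.25 WT libraries (38.1% and 41.1%) and all 5 E10.25 CKO libraries (43.8% to 80.8%), but in 3 of 14 libraries of the overexpression experiment. The site at -8.48 kb was listed in both E10.25 WT and in 0 of 5 E10.25 CKO libraries.

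Lmo2, a LIM-domain cofactor of TAL1, had 9 sites. The site at -30.05 kb was listed in 29 libraries, with ranks of 3.1% to 11.2% in the 6 EYFP+ libraries, 6.9% to 35.5% in the 8 control and 20.6% to 46.3% in the 6 Etv2OE libraries. In CKO libraries it was listed in 5 of 7, at 29.7% to 64.9%, and in E10.25 WT at 41.7% and 44.3%. The EYFP+ ranks and the ranks of E10.25 WT and CKO did not overlap, but the share of all sites with such a separation was not computed. The neighbouring site at -27.1 kb was listed in 0 of 6 EYFP+ libraries and in 3 of the 12 other libraries of the limb-bud populations (Fisher's exact test, adjusted p = 0.919). These were both E10.25 WT libraries and 1 of 7 CKO libraries. In the overexpression experiment it was listed in 13 of 14 libraries.

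Fli1 had 19 sites and Erg 25, the highest numbers, and they are among the longest of the 10 genes. Fli1 was listed most widely in its intron at +46.36 kb (29 libraries) and Erg in its intron at -10.58 kb from one of its starts (29 libraries). The Fli1 promoter was listed in 14 libraries and the Erg promoter in 24. Of the Erg sites, 11 were listed in 1 library only.

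The receptor genes differed from each other. Kdr, the main receptor for VEGF-A, was listed at its promoter in 32 of 32 libraries, at 20.6% to 87.4% of the list, and at a site 56.45 kb from its start, downstream of the gene, in 21 libraries. Tek, the receptor for angiopoietins, was listed at its promoter in 4 libraries, at 80.3% to 96.5%, but at its intronic site at +25.88 kb in 25 libraries with a median rank of 24.2%, the best median among the 25 most widely listed sites. Tie1, an orphan relative of TEK, had 1 site, in an intron, which was listed in 11 libraries at 70.1% to 99.04%. Its promoter was listed in none.

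The adhesion genes were listed at distal sites only. Cdh5, which encodes VE-cadherin, had sites at -9.97 and -24.49 kb that were listed in 25 and 21 libraries, and a site at -49.99 kb listed in 23. The last straddles the 50 kb limit, with 1 of its summits inside and the rest just beyond it, and it is counted as 1 member site. Each of the 3 was listed in all 8 control libraries, in both E10.25 WT libraries and in 0 of 2 E10.5 CKO libraries. In the same order, they were listed in 2, 1 and 2 of 5 E10.25 CKO and in 2, 2 and 1 of 3 HL EYFP+ libraries. The share of all sites with this pattern was not computed. Pecam1, which encodes CD31, had its most widely listed sites at -12.62 and +40.46 kb, each in 13 libraries.

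The 7 CKO libraries were next set against the 25 libraries with intact Etv2, by presence at every site of the series listed in at least 2 libraries. By the two-sided Fisher's exact test with an adjusted p under 0.05, 5 of 64 member sites (7.81%) and 4.47% of all sites passed. Of these, 4 were listed less often in CKO. The Erg site at +31.09 kb was listed in 0 of 7 CKO against 20 of 25 other libraries (adjusted p = 0.0168). The Fli1 site at -9.17 kb was listed in 0 of 7 against 19 of 25 (0.0245), and the Tek site at +25.88 kb and the Cdh5 site at -9.97 kb in 2 of 7 against 23 of 25 each (0.0431). The Erg site at -2.48 kb was listed more often in CKO, in 6 of 7 against 3 of 25 (0.0245). The groups were not matched: CKO lists held 15626 to 42742 summits (median 30146) and the others 13763 to 54676 (median 41281), and the others included sorted cells and later tissue. The 25 others were also not fully independent. Each embryo of the overexpression experiment gave an anterior and a posterior library, and the EYFP+ libraries shared pools between limbs. The exact test treats them as separate units, so its p-values are likely too small. Against the 11 intact libraries of the limb-bud populations alone, 0 of 49 member sites passed, as did 0 of 71400 sites. With lists of at least 25000 summits, 1 of 64 member sites passed, the Erg site at -2.48 kb, and 1.19% of all sites. In lists cut at 25000 summits, 2 of 36 passed (2.94% of all sites), the Erg site at -2.48 kb and the Kdr site at +56.45 kb, so the 4 sites listed less often in CKO were called in neither setting.

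The 5 sites differed in where they were listed. The Erg intron site at +31.09 kb was listed in all 6 EYFP+ and all 14 overexpression-experiment libraries and in 0 of the other 12, so it was missing from E10.25 WT as well as from CKO. Its ranks were 73.4% to 91.8% in HL EYFP+, 30.3% to 60.01% in FL EYFP+ and 17.5% to 60.7% in control libraries. The Erg upstream site at -2.48 kb was strongest in E10.5 CKO, at 20.6% and 12.6%, and was listed at 35.4% to 82.3% in 4 of 5 E10.25 CKO libraries. It was also listed in 1 of 2 E10.25 WT (62.0%) and 2 of 3 HL EYFP+ libraries (78.4% and 68.0%), and in 0 of 14 libraries of the overexpression experiment. Both E10.5 CKO ranks were stronger than every other rank of this site. The Tek intron site was listed in both E10.5 CKO libraries, at 13.2% and 11.7%, within the range of HL EYFP+ (10.8% to 32.3%), whereas 0 of 5 E10.25 CKO libraries and 1 of 2 E10.25 WT libraries listed it. The CKO libraries thus differed by stage in presence at Tek, but the share of all sites with this difference was not computed. The Cdh5 site was listed in 2 of 5 E10.25 CKO (46.9% and 98.2%) and 0 of 2 E10.5 CKO libraries, and at 41.8% and 34.4% in E10.25 WT. The Fli1 site at -9.17 kb was listed in both E10.25 WT (77.3% and 69.4%), all 6 EYFP+ (28.6% to 71.6%) and 7 of 8 control libraries (29.1% to 87.2%). In Etv2OE embryos, it was listed in 3 of 3 anterior (35.7% to 69.6%) and 0 of 3 posterior libraries. The share of all sites with this split was not computed. Over all 7 embryos it was listed in both parts in 3, in the anterior part alone in 3 and in the posterior part alone in 1. A limma test of whether the effect of Etv2OE differed between the parts gave an adjusted p of 0.943 at this site.

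**Figure D4:**
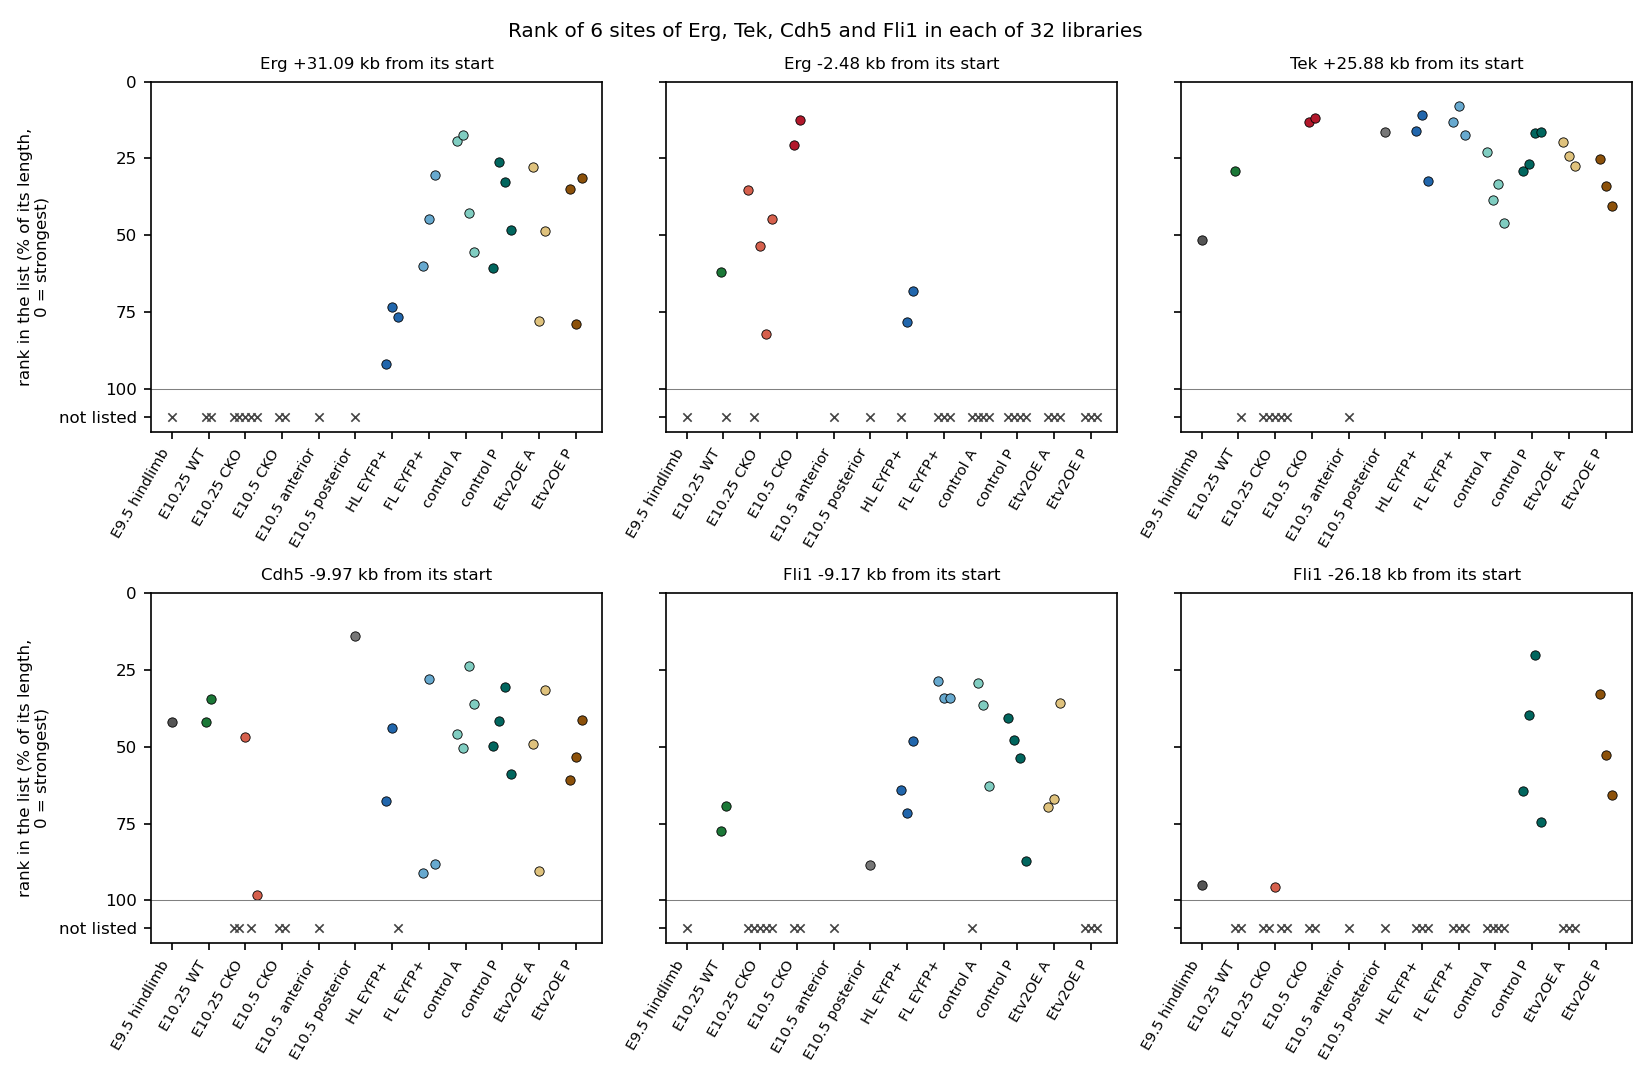
Rank as percent of the list length (vertical axis, 0 at the top is the strongest summit, crosses below 100 are libraries that do not list the site) of 6 sites of Erg, Tek, Cdh5 and Fli1 in the 12 groups (horizontal axis), with 1 mark per library. The Erg site at +31.09 kb has only crosses in the 6 groups on the left, the Erg site at -2.48 kb has its strongest ranks, 12.6% and 20.6%, in E10.5 CKO, and the Fli1 site at -26.18 kb is listed in all 7 posterior and 0 of 7 anterior libraries of the overexpression experiment.

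EYFP+ cells were set against the 12 other libraries of the limb-bud populations in the same way. Of 49 member sites tested, 2 passed (4.08%), against 1.91% of all sites. These were the Etv2 site at -3.39 kb and the Erg site at +31.09 kb (6 of 6 against 0 of 12, exact p = 5.39e-05, adjusted p = 0.0134). The Fli1 sites at +33.34, +26.81 and -9.17 kb were each listed in 6 of 6 against 3 of 12 (adjusted p = 0.156), and the Tek intron site in 6 of 6 against 5 of 12 (adjusted p = 0.288). The 6 EYFP+ libraries came from 3 pools, so they are not fully independent. With the 3 HL or the 3 FL libraries alone, 0 of the member sites passed and 0 of all sites. The EYFP+ lists held 32245 to 48381 summits (median 39246) and the others 13763 to 45346 (median 33282), and with the lists of at least 25000 summits 1 member site passed, the Erg site (0.478% of all sites). In lists cut at 25000 summits, neither of these 2 sites passed and the Fli1 site at +33.34 kb did (0.644% of all sites).

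Comparisons of strength used rank scores in lists cut to 1 length per comparison. A rank score is 1 for the strongest summit and falls to 0 for a site that is not listed. Scores of 200-bp intervals, and for each gene the log2 of 1 plus the sum of its scores (the locus score), were compared by limma with Benjamini-Hochberg adjustment over all intervals or all genes. No member interval and no member locus had an adjusted p under 0.05 in any of the 6 comparisons. The results for each follow, with the calls among all features beside them.

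HL EYFP+ against E10.5 CKO asked how the reporter-positive cells differ from posterior cells without Etv2. Sorting and dissection differed as well, because the CKO cells were unsorted and the EYFP+ cells were sorted against CD31, TIE2 and CD45. Loss of Etv2 and these differences cannot be told apart here. None of 35027 intervals and none of 13792 loci was called (0% and 0%), while 5592 intervals and 1559 loci had an unadjusted p under 0.05. In simulated data, 0 of 200 intervals shifted by 0.5 were recovered with these group sizes, and 107 of 200 loci shifted by 1. The Erg locus had the smallest p of the members. Its locus scores were 1.01, 0.881 and 1.11 in HL EYFP+ and 1.69 and 1.61 in E10.5 CKO. The values of the groups did not overlap and those of CKO were higher, but the share of all loci with such a separation was not computed. The difference was -0.65 (95% interval -0.87 to -0.43, adjusted p = 0.135). The Kdr locus scored 0.570, 0.500 and 0.893 in HL EYFP+ and 1.19 and 1.01 in E10.5 CKO, a difference of -0.45 (-0.83 to -0.06, adjusted p = 0.365). The Cdh5 locus went the other way in value, at 0.472, 0.501 and 0 against 0 and 0, with a difference of 0.32 (-0.16 to 0.81, adjusted p = 0.638). Among the Erg intervals, the site at -2.48 kb had a mean rank score of 0.0218 ± 0.0378 (SD, n = 3) against 0.787 ± 0.0997 (n = 2), and the intronic site at +14.63 kb 0.0764 ± 0.0712 against 0.794 ± 0.0618 (adjusted p = 0.149 for both). By presence in the whole lists, 6 of 30 member sites were listed in all 3 HL EYFP+ and no E10.5 CKO library, against 7.89% of all sites. They were the Fli1 sites at +33.34, +26.81 and -9.17 kb, the Erg site at +31.09 kb, the Lmo2 site at +1.35 kb and the Pecam1 site at -12.62 kb. The Pecam1 site at +40.46 kb was listed in both E10.5 CKO and no HL EYFP+ library, as 5.41% of all sites were. In lists of 25000 summits, the counts were 2 and 1 of 21, against 6.01% and 7.78% of all sites.

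E10.25 WT against E10.25 CKO compared posterior hindlimb cells of 1 stage with and without Etv2. Here 2.17% of 24300 intervals and 1.46% of 12766 loci were called, and 0 of the 5 member loci that could be tested. Etv2, Tek, Tie1, Cdh5 and Pecam1 had too few summits among the strongest 15000 of each list to be tested. The Erg locus scored 0 and 0 in E10.25 WT and 0.122 to 0.706 in the 5 E10.25 CKO libraries, a difference of -0.48 (-0.89 to -0.06, adjusted p = 0.305). The scores of 0 hold only in lists cut to 15000 summits. In the whole lists both E10.25 WT libraries listed the Erg promoter, at ranks 19343 and 15780 (44.4% and 46.3% of the list), and 4 of 5 E10.25 CKO libraries listed it. The Kdr, Fli1, Lmo2 and Tal1 loci had intervals that included 0. By presence, 3 of 33 member sites were listed in both E10.25 WT and in none of the CKO libraries, against 5.63% of all sites. They were the Etv2 coding exon site, the Tal1 site at -8.48 kb and the Fli1 site at -9.17 kb. None was listed in all CKO and no WT library, against 0.125% of all sites. With the whole lists in place of 15000 summits, the Etv2 locus could be tested and passed (difference 0.65, limma adjusted p = 0.0184), as did 1.01% of all loci, but these lists differ in length between the groups (34051 and 43566 summits in E10.25 WT, 15626 to 42742 in E10.25 CKO).

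HL EYFP+ against E10.25 WT set sorted cells against unsorted posterior tissue with intact Etv2, and stage and dissection differed as well. No interval of 42569 (0%, 7653 with an unadjusted p under 0.05) and 0.247% of 15010 loci were called. Tal1 was the nearest of the members to the threshold. Its locus scored 0.629, 0.545 and 0.803 in HL EYFP+ and 1.55 and 1.48 in E10.25 WT, a difference of -0.86 (-1.11 to -0.61, adjusted p = 0.0652). Fli1 was higher in value in the sorted cells, at 1.84, 1.25 and 1.70 against 1.16 and 0.836 (difference 0.60, 0.03 to 1.17, adjusted p = 0.311). Pecam1 scored 0.187, 0.320 and 0.334 against 0 and 0 (difference 0.28, 0.06 to 0.50, adjusted p = 0.245), although 1 of 2 whole E10.25 WT lists held a Pecam1 site. By presence, 2 of 35 member sites, the Erg site at +31.09 kb and the Lmo2 site at +1.35 kb, were listed in all HL EYFP+ and no E10.25 WT library (3.71% of all sites). A further 2, the Lmo2 site at -27.1 kb and the Tal1 site at -8.48 kb, were listed in both E10.25 WT and no HL EYFP+ library (7.48% of all sites). In lists of 30000 summits, the sites changed: 3 of 31 were listed in HL EYFP+ alone (Pecam1 at -12.62 kb, Lmo2 at +1.35 kb and Fli1 at +33.34 kb, against 4.93% of all sites) and 2 of 31 in E10.25 WT alone (Tal1 at -8.48 kb and its promoter, against 6.81%). At the level of intervals, the Lmo2 site at -30.05 kb had a mean rank score of 0.919 ± 0.0396 (SD, n = 3) against 0.446 ± 0.0732 (n = 2), and the Erg site at -10.58 kb 0.771 ± 0.0901 against 0.0539 ± 0.0763. The Tal1 promoter was at 0 in HL EYFP+ and at 0.490 ± 0.0610 in E10.25 WT. The limma adjusted p was 0.0918 for each of these. The Tal1 promoter score of 0 holds only in lists cut to 30000 summits, and 1 of 3 whole HL EYFP+ lists held the promoter site. HL EYFP+ and E10.25 WT libraries enter other comparisons here as well, so the comparisons are not independent.

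FL EYFP+ against HL EYFP+ asked whether reporter-positive cells of the limb types differ. No interval of 45582 and no locus of 14890 was called (0% and 0%, with 1653 and 590 at an unadjusted p under 0.05), also with the pool as a block. In simulated data with these group sizes, 0 of 200 shifted intervals and 108 of 200 shifted loci were recovered. The Etv2 locus, which includes the upstream site that the transgene carries, scored 0.747, 0.578 and 0.540 in FL EYFP+ and 0, 0.495 and 0.414 in HL EYFP+. Each forelimb value lay above each hindlimb value, but the share of all loci with such a separation was not computed. The difference was 0.32 (-0.07 to 0.71, adjusted p = 1.00). The Pecam1 locus scored 0 in the 3 FL EYFP+ libraries and 0.187, 0.320 and 0.334 in HL EYFP+ (-0.28, -0.49 to -0.08, adjusted p = 1.00). The Pecam1 scores of 0 hold only in the cut lists, and 2 of 3 whole FL EYFP+ lists held a Pecam1 site. The Fli1 site at +51.47 kb was listed in all FL EYFP+ and no HL EYFP+ library, 1 of 38 member sites against 2.85% of all sites. In the opposite direction, 0 of 38 member sites and 0.479% of all sites were set apart.

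Etv2OE against control tested forced expression of Etv2, with the embryo as the unit (3 against 4). The study reports that HA-ETV2 was absent from some limb bud cells and that only part of the triple-transgenic embryos showed ectopic Shh signalling. Induction in the embryos of these libraries was not measured here. Of 59717 intervals, 0.00335% were called, and 0% of 15624 loci, with 3216 and 1156 at an unadjusted p under 0.05. Of the members, 1 of 37 intervals and 0 of 8 loci had an unadjusted p under 0.05. In simulated data, 18 of 200 shifted intervals and 180 of 200 loci shifted by 1 were recovered. The shifted loci were drawn from all genes. A shift of 1 is large for the members, whose control means ran from 0.09 (Etv2) to 1.37 (Fli1). Smaller shifts were not simulated, so the recovery does not show whether changes of a size likely at the members would have been called. The member differences ran from -0.18 (Fli1, -0.65 to 0.29, adjusted p = 0.900) to 0.20 (Lmo2, -0.19 to 0.60, adjusted p = 0.851). The Lmo2 difference turned to -0.11 with shorter and -0.24 with whole lists. The narrowest interval was that of Tek, at 0.09 (-0.02 to 0.21, adjusted p = 0.739). The Tek locus scored 0.565 to 0.812 in the 6 Etv2OE and 0.374 to 0.771 in the 8 control libraries, and the groups overlapped. The Etv2 locus itself scored above 0 in 3 of 6 Etv2OE libraries (0.00509, 0.0959 and 0.210) and in 2 of 8 control libraries (0.453 and 0.287), with a difference of -0.04 (-0.21 to 0.12, adjusted p = 0.951), which turned to 0.35 by number of summits. No member site of 55 was listed in all Etv2OE and no control library or the reverse, against 0% and 0.014% of all sites. The lists of Etv2OE libraries were shorter (32666 to 47051 summits) than those of control libraries (40945 to 54676). Whether the effect of Etv2OE differed between the anterior and posterior parts was tested per embryo. It did not reach the threshold at any of 37 member intervals or 8 member loci (smallest adjusted p = 0.882 and 0.942), nor at any of the 59717 intervals and 15624 loci in all.

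The anterior and posterior parts of the control hindlimb were compared next. No interval of 66645 was called (0%, with 7827 at an unadjusted p under 0.05), and 0.495% of 15975 loci. With the embryo as a block, 0 loci were called. The Erg locus was the member with the smallest p. It scored 1.83, 1.84, 1.76 and 1.67 in the anterior and 1.15, 1.45, 1.72 and 1.45 in the posterior libraries of embryos 1 to 4, a difference of 0.33 (0.07 to 0.59, adjusted p = 0.304), which turned to -0.14 with whole lists and to -0.0147 by number of summits. By presence, 2 of 50 member sites, the Fli1 sites at -20.96 and -26.18 kb, were listed in all 4 posterior and no anterior library, against 2.32% of all sites. No member site was listed in all anterior and no posterior library, against 0.483% of all sites. The posterior lists were longer, and in lists of 40000 summits 0 of 39 member sites were set apart, against 1.36% of all sites in the posterior direction.

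All 7 embryos of the overexpression experiment were then fitted in 1 model, with the embryo as a block. This was added after the control comparison was seen. Here 0.502% of 59717 intervals and 0.806% of 15624 loci were called, and no member interval or locus. The Erg intron interval at -10.58 kb came closest and was higher in the anterior part, with a difference in rank score of 0.36 (0.21 to 0.51, adjusted p = 0.0521). The Erg locus differed by 0.32 (0.10 to 0.54, adjusted p = 0.202). The Fli1 site at -26.18 kb was listed in the posterior and not in the anterior part in 7 of 7 embryos. Its ranks were 64.3%, 39.6%, 20.3% and 74.6% in control and 32.8%, 52.7% and 65.6% in Etv2OE posterior libraries. This site had been noticed in the 4 control embryos, so no test of its presence is given. The limma values of the site that follow include the same embryos and are no independent test. Posterior lists were longer, and in lists of 30000 summits 0 of 30 member sites and 0.335% of all sites were set apart in this direction. The limma difference was -0.27 (-0.47 to -0.08, adjusted p = 0.225). Of the sites in all, 0.365% were listed in 7 posterior and 0 anterior libraries, which among the 55 member sites held for this Fli1 site alone, and 0.0927% the reverse, which held for no member site. The site was outside the overexpression experiment listed only in E9.5 hindlimb (95.03%) and in 1 E10.25 CKO library (95.8%), and in neither of the E10.5 anterior and posterior libraries. A further Fli1 site at -23.25 kb was listed in the posterior part alone in 6 of 7 embryos (73.5% to 99.9%) and in neither part in the other.

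**Figure D5:**
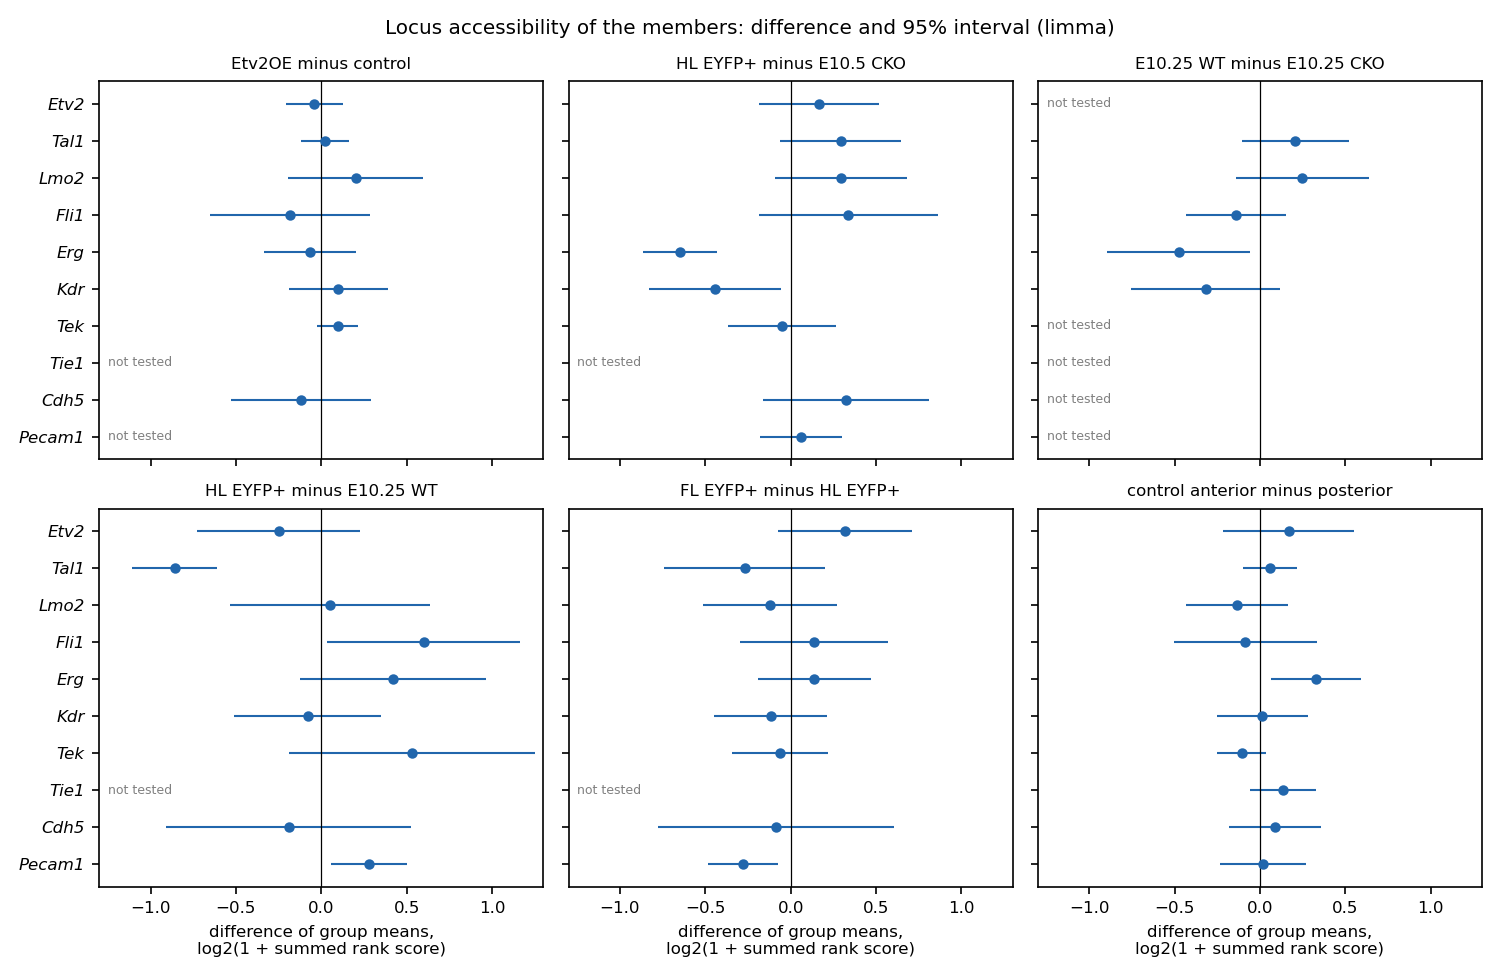
Difference of group means in the locus score, log2(1 + summed rank score) (horizontal axis), with the 95% interval from limma (bars) for the members (vertical axis) in 6 comparisons, where a positive value is higher in the group named first. The Tal1 interval in HL EYFP+ minus E10.25 WT (-1.11 to -0.61) and the Erg interval in HL EYFP+ minus E10.5 CKO (-0.87 to -0.43) lie farthest from 0, and in Etv2OE minus control each interval includes 0.

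Other fixed lists were tested in the same fits. Of 30 other endothelial genes, 12 blood cell genes, 12 limb mesenchyme genes, 8 limb ectoderm genes and 6 muscle progenitor genes, none was called in any comparison. The members' median differences ran from -0.14 (5 genes, E10.25 WT against CKO) to 0.17 (9 genes, HL EYFP+ against E10.5 CKO), while the medians over all genes tested ran from -0.07 to 0.01. Other lists moved as far in the same fits. In HL EYFP+ against E10.5 CKO, the median was 0.15 for other endothelial genes, 0.22 for blood cell genes and 0.28 for limb ectoderm genes, and in E10.25 WT against CKO it was -0.30 for limb mesenchyme genes and 0.39 for limb ectoderm genes. How far cells of other types took part in the member values was not tested. Over the 14 libraries of the overexpression experiment, the Spearman correlations of the 28 pairs of 8 member loci ranged from -0.42 to 0.54 with a median of 0.03, given as a description. The loci most like the mean member locus there were those of Cdyl, Hpse, Ubl3, Mrpl57 and Tubd1, with Spearman correlations of 0.855, 0.851, 0.842, 0.840 and 0.833 among 15615 genes. The mean member locus correlated with list length at -0.42 over these libraries.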

How the data were processed

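The authors aligned reads of 32 ATAC-seq libraries to mm10 with Bowtie2 2.2.4, discarded duplicates (Picard) and reads with more than 1 alignment, moved read ends by +4 or -5 bases to the Tn5 cut, and ran MACS2 on the libraries singly (version not given in the sources used here). Files as deposited hold 1 summit per peak with a score, the −log10 of the q-value, per the file headers and values. No reads or depths were used here, so depth is unknown.

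Only the order of scores within a list was used. In each comparison the lists were cut to 1 length (30000 for Etv2OE against control, HL EYFP+ against E10.25 WT and FL EYFP+ against HL EYFP+, 25000 for HL EYFP+ against E10.5 CKO, 15000 at E10.25, 40000 for anterior against posterior). The rank score is (N + 1 - rank)/N. Intervals of 200 bp counted as listed with a summit within 200 bp and were kept if listed in at least 2 libraries. Loci were gene bodies with 50 kb, by nearest protein-coding start in GENCODE M21. Fits used limma 3.58.1 in R 4.3.3 with a trend, an adjusted p of 0.05 and, for Etv2OE, the mean of both parts of an embryo. Presence was tested by Fisher's exact test over all sites (scipy 1.17.1). Summits on chrM were left out. Each fit was tested on simulated data with 200 shifted features.

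Named by rule were all 10 members and, per gene, the most widely listed promoter and distal site. Further sites were named after their values were seen, where they passed a presence test or were listed in all libraries of 1 group and none of the other. The members and the other gene lists were chosen with earlier results of these data known. FL and HL libraries with the same number deviated together (correlations of 0.184 to 0.421 over intervals), so the number pairs them. Anterior and posterior parts share an embryo by the labels, with correlations of 0.0037 to 0.0469. Replicates elsewhere share only a number. Nothing states that replicate libraries of a sorted or CKO group came from separate litters, so p-values measure the spread between these libraries.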

Additional observations from a re-analysis of the deposited data

How the results depend on the processing

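Of 613 recomputed differences of 50 member loci, 2 passed the threshold (Pecam1 by number of summits, 1.0 for HL EYFP+ against E10.25 WT and -1.0 for FL against HL EYFP+). A further 69 changed sign. For 67 of those the interval of the reported difference included 0, and the other 2 were the Erg locus of anterior against posterior. Counts of called features stayed within 1.5 times in 92 recomputations and moved in 81. Setting by setting, the Etv2OE intervals (2) became 1 with lists of 0.5 times the length, 5 with whole lists, 1 without the filter, 4 with summits within 100 bp, and 0 with the anterior or the posterior libraries only or with all 14 libraries and the correlation within embryos, which was added after seeing the data. The Etv2OE loci (0) became 479 with whole lists, 64 by number of summits, 14 in anterior and 7 in posterior libraries only. Loci by number of summits came to 730 for HL EYFP+ against E10.5 CKO, 345 at E10.25, 845 for HL EYFP+ against E10.25 WT, 125 for FL against HL EYFP+ and 133 for anterior against posterior. At E10.25, the intervals (528) became 207 with shorter lists, 2452 with whole lists and 16 without the filter. The 37 loci of HL EYFP+ against E10.25 WT became 0 with shorter or whole lists, without the filter and with 10 kb around genes. For anterior against posterior, intervals (0) became 81 without the filter and 300 with all 7 embryos, and loci (79) became 48 with shorter lists, 720 with whole lists and 126 with all 7 embryos.

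Leaving out 1 library or embryo at a time gave 1 to 12 Etv2OE intervals and 0 to 5 loci, 0 to 50 intervals for HL EYFP+ against E10.5 CKO, 0 to 46 intervals and 0 to 180 loci at E10.25, 0 to 91 intervals and 0 to 0 loci for HL EYFP+ against E10.25 WT, and 0 to 2 intervals and 19 to 66 loci for anterior against posterior. The Etv2 locus difference under Etv2OE ran from -0.071 to 0.0040 (the positive value without control embryo 1) and was 0.35 by number of summits. The Lmo2 locus reversed to -0.11 with shorter and -0.24 with whole lists, the Tek locus to -0.0095 with whole lists and -0.025 in posterior libraries only, and the Erg locus of anterior against posterior to -0.14 with whole lists and -0.0147 by number of summits. The cause was not tested.

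With the replicate block, the calls became 0 intervals and 0 loci at E10.25 and 0 loci for HL EYFP+ against E10.25 WT, where libraries share only a number (correlations of same-numbered libraries between -0.0380 and 0.0154), and 0 loci for anterior against posterior, where the embryo pairs them. The block changed no other count of calls.

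The remaining settings were chosen after seeing the data. In lists of equal length, member sites set apart came to 2 for HL EYFP+ against E10.5 CKO, 0 at E10.25, 3 and 2 for HL EYFP+ against E10.25 WT, 0 for FL EYFP+ and 1 for HL EYFP+, 0 for posterior control and 0 over all 7 embryos. The Etv2 exon site was then listed in 50.0% of E10.25 WT libraries, and it was in 100% against 3 longer CKO lists, but with an exact p of 0.10. Sites called for CKO came to 0 without the overexpression experiment, 1 in lists of at least 25000 summits (Erg at -2.48 kb) and 2 in lists cut there (the same site and Kdr at +56.45 kb). Sites called for EYFP+ came to 0 with hindlimb or forelimb libraries only, 1 in lists of at least 25000 summits (Erg at +31.09 kb) and 1 in lists cut there (Fli1 at +33.34 kb, not called before).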
